A study of Rattus norvegicus with 150 samples.

Results

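Counts of 5 inflammation-related genes were followed in muscle of rats that carried small metal cylinders. The genes were taken by name from the table of 32545 genes. They are the cytokines interleukin 1 beta (Il1b, ENSRNOG00000004649) and interleukin 6 (Il6, ENSRNOG00000010278), the chemokines Ccl2 (ENSRNOG00000007159) and Cxcl1 (ENSRNOG00000002802), and the protease Mmp9 (ENSRNOG00000017539). All 5 identifiers were found. Their names rest on the list that defined the set, because neither the count table nor the reference table used here paired identifiers with names.

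Il1b is made as a precursor mainly by activated monocytes and macrophages, is cut by caspase 1 and acts on tissue cells to switch on further inflammatory genes. Il6 signals through gp130 and is made by immune cells, by stromal cells and, after exercise, by muscle fibres. Ccl2 draws monocytes through the receptor Ccr2, Cxcl1 draws neutrophils through Cxcr2, and Mmp9 is a gelatinase that neutrophils and macrophages release and that cleaves collagen of basement membranes. After muscle injury or around an implant, neutrophils and then macrophages enter the tissue, and these genes are widely used as readouts of that step.

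The animals were male Sprague-Dawley rats, about 30 days old when bought and acclimated for at least 2 weeks. Each rat carried 4 cylinders of 1 metal in the gastrocnemius, the large calf muscle, with 2 in each limb, 1 mm across and 2 mm long. Cobalt (Co), depleted uranium (DU) and a metal with the label P were sampled at 1, 3, 6 and 12 months after surgery, and nickel (Ni) at 1, 3 and 6 months. The Ta groups (1, 3, 6 and 12 months) carried tantalum as the sham metal, so these rats also had surgery and a foreign body. Lead (Pb) is the only sequenced metal in the design text whose symbol starts with P, so P is taken to be lead and its label is kept as written. Total RNA was sequenced from 150 libraries in 19 groups, 17 of 8 libraries and 2 of 7 (Ta at 1 month and Co at 6 months). No muscle without an implant was analysed here. The design planned 8 rats per group, which matches the libraries of most groups. The labels name no rat for any library, so the p-values given here reflect variation between libraries. That each library is a separate rat is not stated, so part of this variation may be technical.

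Total counts were 12674115 to 21921859 per library, with a median of 15778710. In DU replicate 2 at 3 months the median correlation of the profile with the other libraries of its group was 0.789, against 0.925 in the library next lowest on this measure and a median of 0.982 over all libraries. Co replicate 1 at 6 months had a scaling (TMM) factor of 0.459, the lowest of all. Where either library decides a value of the 5 genes, the value without it is also given. Markers of muscle, macrophages and neutrophils could not be looked up without names, so the tissue label and the immune cell content were not checked.

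The promoters of Il1b, Il6 and Cxcl1 are shown because Il1b and Il6 passed a test in cobalt muscle in which Cxcl1 did not, and because these genes are textbook targets of NF-kappaB. They are from RefSeq, build GRCr8, and run from 250 bases before to 50 bases after the gene start, in the direction of transcription. Entries were held for 3 of the 5 genes, and Ccl2 and Mmp9 are given by name only. Capitals mark motif matches.
Il1b promoter, chr3:137036532-137036831, minus strand: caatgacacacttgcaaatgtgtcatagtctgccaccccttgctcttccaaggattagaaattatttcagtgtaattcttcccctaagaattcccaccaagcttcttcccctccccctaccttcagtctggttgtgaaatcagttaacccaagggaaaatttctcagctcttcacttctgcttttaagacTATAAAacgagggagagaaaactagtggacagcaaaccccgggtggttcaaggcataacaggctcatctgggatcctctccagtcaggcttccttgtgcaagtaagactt
Il6 promoter, chr4:5894526-5894825, minus strand: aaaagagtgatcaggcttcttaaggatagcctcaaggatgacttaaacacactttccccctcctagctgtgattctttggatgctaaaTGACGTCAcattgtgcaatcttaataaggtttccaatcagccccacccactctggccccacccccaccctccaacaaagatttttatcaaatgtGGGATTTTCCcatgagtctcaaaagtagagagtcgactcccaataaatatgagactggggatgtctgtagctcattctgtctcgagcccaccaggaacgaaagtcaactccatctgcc
Cxcl1 promoter, chr14:17479272-17479571, minus strand: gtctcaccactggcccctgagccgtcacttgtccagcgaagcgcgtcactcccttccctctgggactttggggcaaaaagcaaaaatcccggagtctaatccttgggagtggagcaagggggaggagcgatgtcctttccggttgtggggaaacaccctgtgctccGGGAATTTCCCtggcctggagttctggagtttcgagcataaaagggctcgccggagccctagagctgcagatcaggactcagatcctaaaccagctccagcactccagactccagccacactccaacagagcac

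Both strands were searched for the NF-kappaB consensus, the AP-1 site TGANTCA, the cyclic AMP response element TGACGTCA, the core of the hypoxia response element (ACGTG or GCGTG) and the TATA box TATAAA. In Il6 the NF-kappaB consensus matched at -68 to -59 and the cyclic AMP element at -162 to -155, counted from the gene start. In Cxcl1 the NF-kappaB consensus matched at -84 to -75 on the plus strand and, overlapping it, at -83 to -74 on the minus strand. In Il1b the TATA box matched at -60 to -55. Of 33469 promoters of the same length, 4.18% held the NF-kappaB consensus, 1.83% the cyclic AMP element, 14.2% the TATA box, 7.33% the AP-1 site and 41.6% the hypoxia core. The last 2 had no match in these 3 windows. A match is a description of letters and was not tied to binding.

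The 5 transcripts were sparse in most libraries. Of 150 libraries, 149 held counts of Ccl2, 137 of Il1b, 126 of Cxcl1, 81 of Il6 and 43 of Mmp9. Summed over all libraries these were 9041, 2520, 2338, 917 and 667 counts. Levels below are CPM, each count divided by its library's total and scaled with TMM factors over all libraries, and 1 CPM is about 16 counts at the median total. At least 1 CPM was reached in 67 libraries for Ccl2, 17 for Il1b, 8 for Il6, 7 for Mmp9 and 4 for Cxcl1. Levels were not compared between genes, because no transcript lengths were at hand.

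The counts lay mostly in few libraries. The 16 Co libraries of 1 and 3 months held 70.8% of all Il1b counts, 70.0% of Ccl2 and 72.0% of Mmp9, but 29.9% of Il6 and 7.36% of Cxcl1. For Il6 and Cxcl1 the highest library was DU replicate 6 at 12 months, with 429 of 917 and 1555 of 2338 counts. The highest single libraries of Il1b (429 counts), Ccl2 (1253 counts) and Mmp9 (120 counts) were Co libraries of 3 months.

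**Figure D1:**
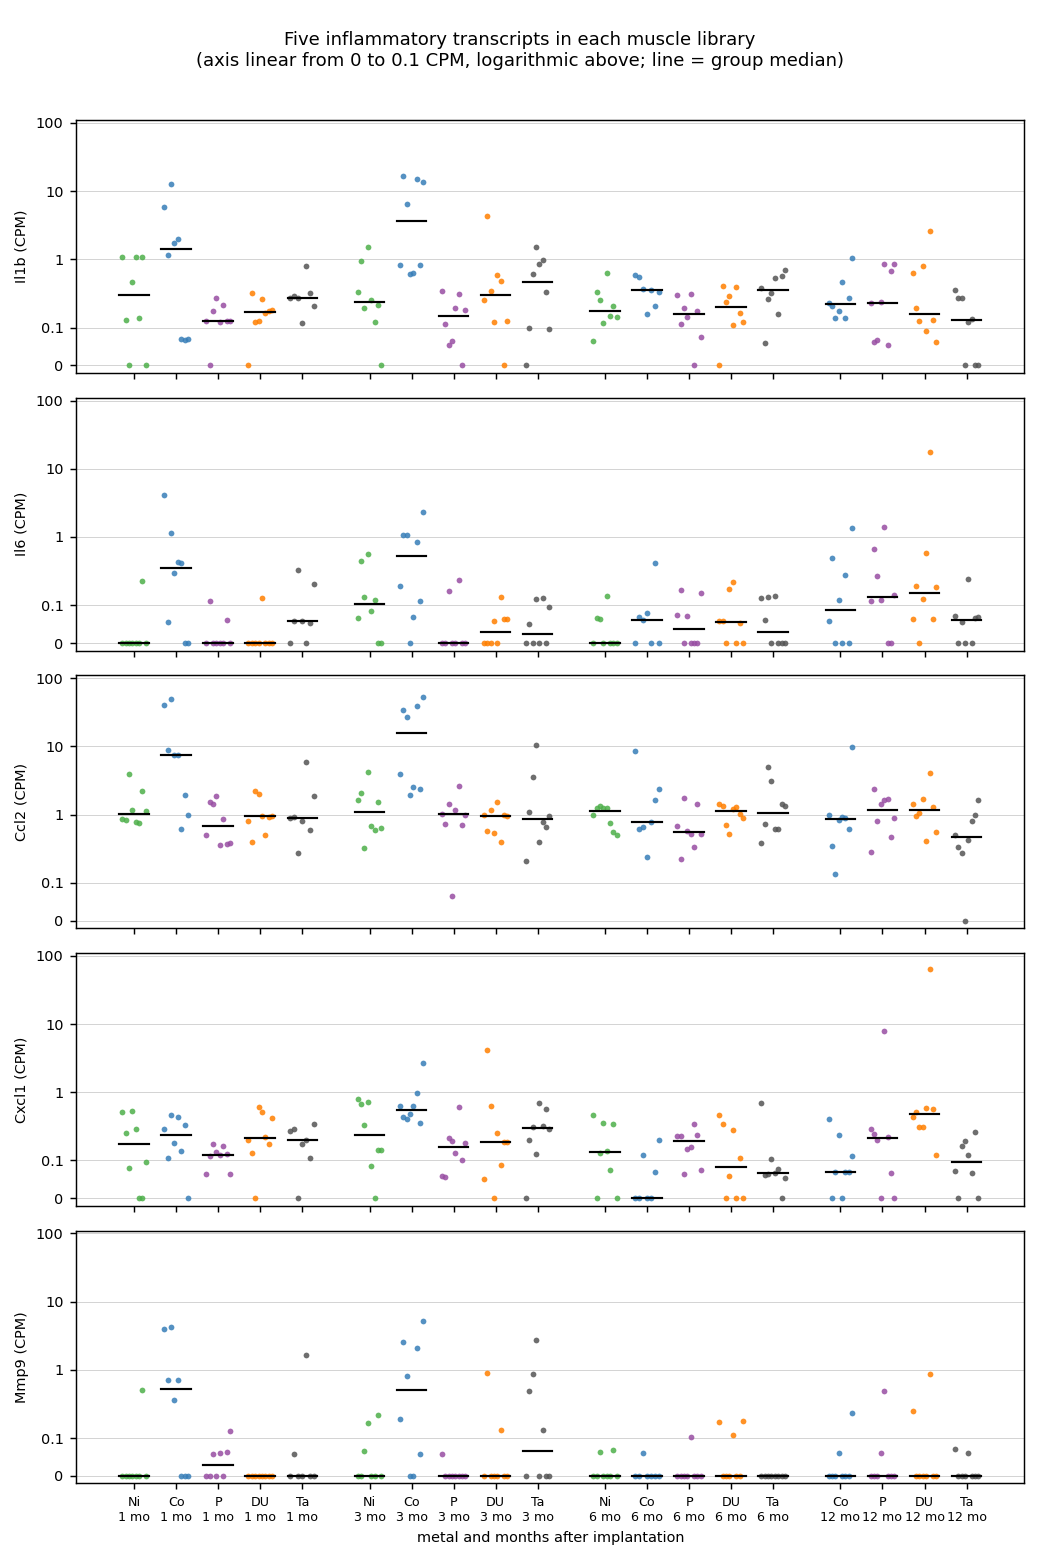
CPM of Il1b, Il6, Ccl2, Cxcl1 and Mmp9 (panels from top to bottom) in each of the 150 libraries, by metal and month, with the axis linear to 0.1 CPM and logarithmic above. Each point is a library and each line a group median. Co libraries at 1 and 3 months reach 16.9 CPM of Il1b and 53.6 CPM of Ccl2, and DU replicate 6 at 12 months stands alone at 64.1 CPM of Cxcl1.

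Il1b was highest around cobalt at 1 and 3 months. It averaged 2.96 ± 4.42, 6.86 ± 7.20, 0.366 ± 0.161 and 0.335 ± 0.307 CPM with Co at 1, 3, 6 and 12 months (SD, n = 8, 8, 7 and 8). Without replicate 3 the 1-month Co mean was 1.55 CPM. Around Co the SD at 1 and 3 months exceeded the mean, which reflects a few high libraries in each group. With the other metals the group means of Il1b lay between 0.144 and 0.786 CPM. Ni averaged 0.493 ± 0.502, 0.448 ± 0.517 and 0.236 ± 0.177 CPM of Il1b at 1, 3 and 6 months (SD, n = 8 each). P averaged 0.144 ± 0.0791, 0.157 ± 0.123, 0.165 ± 0.107 and 0.379 ± 0.356 CPM of Il1b at 1, 3, 6 and 12 months (SD, n = 8 each). DU averaged 0.169 ± 0.0967, 0.786 ± 1.46, 0.215 ± 0.143 and 0.581 ± 0.875 CPM of Il1b (SD, n = 8 each). The 3-month DU mean carries replicate 2, at 4.37 CPM. The other 7 DU libraries of that time lay between 0 and 0.590 CPM, with a mean of 0.274 CPM. Without replicate 6 the 12-month DU mean was 0.287 CPM. With Ta Il1b averaged 0.326 ± 0.221, 0.563 ± 0.537, 0.374 ± 0.220 and 0.144 ± 0.142 CPM at 1, 3, 6 and 12 months (SD, n = 7, 8, 8 and 8).

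At 3 months 4 of 8 Co libraries had more Il1b than every Ta library of that time. Replicates 2, 6, 8 and 3 held 16.9, 15, 13.5 and 6.58 CPM, and the other Co libraries held 0.607 to 0.825 CPM. The 8 Ta libraries ran from 0 to 1.54 CPM with a median of 0.471 CPM. The groups overlapped, but all 8 Co libraries lay above the Ta median. At 1 month Co replicates 3, 1, 5, 4 and 2 held 12.8, 5.78, 2.00, 1.73 and 1.14 CPM, and the other 3 held 0.0660 to 0.0705 CPM, below the lowest Ta library at 0.116 CPM. The 7 Ta libraries ran from 0.116 to 0.802 CPM with a median of 0.273 CPM. So the Co group of 1 month held libraries above the whole range of Ta. The lowest Co library held 1 count of Il1b and the lowest Ta library 2 counts, so the low side is not resolved at this depth.

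Ccl2, the monocyte chemokine, followed the same libraries. It averaged 14.7 ± 19.3, 20.6 ± 20.5, 2.11 ± 2.89 and 1.80 ± 3.19 CPM with Co at 1, 3, 6 and 12 months (SD, n = 8, 8, 7 and 8). Ni averaged 1.46 ± 1.09, 1.45 ± 1.25 and 0.981 ± 0.342 CPM of Ccl2 at 1, 3 and 6 months (SD, n = 8 each). P averaged 0.912 ± 0.613, 1.09 ± 0.736, 0.754 ± 0.537 and 1.2 ± 0.708 CPM of Ccl2 at 1, 3, 6 and 12 months (SD, n = 8 each). DU averaged 1.10 ± 0.664, 0.886 ± 0.368, 1.05 ± 0.325 and 1.43 ± 1.15 CPM of Ccl2 (SD, n = 8 each). With Ta Ccl2 averaged 1.61 ± 1.97, 2.26 ± 3.47, 1.64 ± 1.59 and 0.617 ± 0.508 CPM (SD, n = 7, 8, 8 and 8). Several of these means rested on 1 library. Without Co replicate 1 at 6 months (8.45 CPM of Ccl2) and Co replicate 8 at 12 months (9.67 CPM of Ccl2) the Co means were 1.06 and 0.675 CPM. Without Ta replicate 5 at 1 month (5.95 CPM of Ccl2) and Ta replicate 4 at 3 months (10.5 CPM of Ccl2) the Ta means were 0.889 and 1.09 CPM. No Ni, P or DU library of 1, 3 or 6 months reached the highest Ta library of its time.

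At 3 months Co replicates 8, 6, 2 and 3 held 53.6, 39.5, 34.1 and 27.1 CPM of Ccl2, and the other 4 held 1.95 to 3.93 CPM. The Ta libraries ran from 0.207 to 10.5 CPM with a median of 0.863 CPM. The 4 high Co libraries were those high in Il1b, and all 8 lay above the Ta median. At 1 month Co replicates 3, 1, 2, 4 and 5 held 50.3, 40.2, 8.84, 7.51 and 7.50 CPM of Ccl2, and the other 3 held 0.620 to 1.91 CPM. The Ta libraries ran from 0.273 to 5.95 CPM with a median of 0.879 CPM.

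Mmp9, the gelatinase, was at 0 in most of the muscle. It averaged 1.26 ± 1.82, 1.35 ± 1.82, 0.00867 ± 0.0229 and 0.0365 ± 0.0820 CPM with Co at 1, 3, 6 and 12 months (SD, n = 8, 8, 7 and 8). Ni averaged 0.0632 ± 0.179, 0.0561 ± 0.0876 and 0.0166 ± 0.0307 CPM of Mmp9 at 1, 3 and 6 months (SD, n = 8 each). P averaged 0.0382 ± 0.0463, 0.00719 ± 0.0204, 0.0131 ± 0.0371 and 0.0680 ± 0.170 CPM of Mmp9 at 1, 3, 6 and 12 months (SD, n = 8 each). DU averaged 0.130 ± 0.317, 0.0579 ± 0.0825 and 0.139 ± 0.306 CPM of Mmp9 at 3, 6 and 12 months (SD, n = 8 each). Without replicate 2 the 3-month DU mean was 0.019 CPM, and without replicate 6 the 12-month DU mean was 0.0355 CPM. Ta averaged 0.247 ± 0.628 and 0.524 ± 0.936 CPM of Mmp9 at 1 and 3 months (SD, n = 7 and 8) and 0.0165 ± 0.0307 CPM at 12 months (SD, n = 8). The Ta means rested on replicate 5 at 1 month and replicate 4 at 3 months, without which they were 0.00973 and 0.212 CPM. No DU library of 1 month and no Ta library of 6 months held a count of Mmp9, which allows up to 0.023 and 0.0264 CPM over the group (3 counts, counting error only).

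Ta muscle was not free of Mmp9. At 3 months Co libraries ran from 0 to 5.13 CPM with a median of 0.5 CPM, while Ta libraries ran from 0 to 2.71 CPM with a median of 0.0647 CPM. Only Co replicate 8 exceeded the highest Ta library, replicate 4, which was also the highest Ta library in Ccl2 and Il1b. At 1 month Co libraries ran from 0 to 4.31 CPM with a median of 0.531 CPM, while Ta replicate 5 held 1.67 CPM, another Ta library 0.0584 CPM and the other 5 none.

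Il6 held few counts in most groups. It averaged 0.818 ± 1.41, 0.713 ± 0.802, 0.0889 ± 0.147 and 0.284 ± 0.459 CPM with Co at 1, 3, 6 and 12 months (SD, n = 8, 8, 7 and 8). Ni averaged 0.0281 ± 0.0795, 0.176 ± 0.209 and 0.0335 ± 0.0515 CPM of Il6 at 1, 3 and 6 months (SD, n = 8 each). P averaged 0.0222 ± 0.0435, 0.0489 ± 0.0925, 0.0582 ± 0.0703 and 0.339 ± 0.480 CPM of Il6 at 1, 3, 6 and 12 months (SD, n = 8 each). DU averaged 0.0161 ± 0.0457, 0.0395 ± 0.0482, 0.0704 ± 0.0834 and 2.36 ± 6.19 CPM of Il6 (SD, n = 8 each). Single libraries carried several of these means. Without Co replicate 1 the 1-month Co mean was 0.336 CPM, without Co replicate 8 the 12-month Co mean was 0.134 CPM, and without DU replicate 6 the 12-month DU mean was 0.172 CPM. With Ta Il6 averaged 0.1 ± 0.122, 0.0496 ± 0.0581, 0.0566 ± 0.0649 and 0.0627 ± 0.0794 CPM (SD, n = 7, 8, 8 and 8). At these levels a Ta group of 8 libraries held 6 to 8 counts in all. At 3 months Co libraries ran from 0 to 2.35 CPM with a median of 0.520 CPM, against 0 to 0.129 CPM with a median of 0.0247 CPM in Ta libraries. Co replicates 1, 2, 3, 6 and 8 lay above every Ta library, and replicate 4 held no count.

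Cxcl1, the neutrophil chemokine, had its 3 highest libraries outside cobalt. It averaged 0.242 ± 0.161, 0.824 ± 0.782, 0.0555 ± 0.0788 and 0.120 ± 0.136 CPM with Co at 1, 3, 6 and 12 months (SD, n = 8, 8, 7 and 8). At 1 month no Co library exceeded 0.456 CPM of Cxcl1, and no Ta library exceeded 0.343 CPM. Ni averaged 0.218 ± 0.211, 0.360 ± 0.319 and 0.187 ± 0.175 CPM of Cxcl1 at 1, 3 and 6 months (SD, n = 8 each). P averaged 0.119 ± 0.0400, 0.193 ± 0.181, 0.183 ± 0.0917 and 1.13 ± 2.79 CPM of Cxcl1 at 1, 3, 6 and 12 months (SD, n = 8 each). DU averaged 0.285 ± 0.210, 0.690 ± 1.40, 0.156 ± 0.180 and 8.37 ± 22.5 CPM of Cxcl1 (SD, n = 8 each). The high means of P and DU at 12 months and of DU at 3 months each rest on 1 library, with 8.03, 64.1 and 4.12 CPM. Without these libraries the means were 0.145, 0.406 and 0.200 CPM. With Ta Cxcl1 averaged 0.198 ± 0.118, 0.314 ± 0.230, 0.142 ± 0.229 and 0.110 ± 0.0930 CPM (SD, n = 7, 8, 8 and 8). At 3 months Co libraries ran from 0.349 to 2.69 CPM with a median of 0.547 CPM, against 0 to 0.706 CPM with a median of 0.296 CPM in Ta libraries, and all 8 Co libraries lay above the Ta median.

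In the order of group means, Co at 3 months came first for Il1b, Ccl2 and Mmp9, with Co at 1 month second. DU at 12 months came first for Il6 and Cxcl1 through replicate 6, which held 429 of the 452 Il6 counts and 1555 of the 1604 Cxcl1 counts of its group. In the order of group medians Co at 3 months came first for Il1b, Il6, Ccl2 and Cxcl1, and Co at 1 month for Mmp9. Among the 18 neighbouring pairs of group means of each gene, 0 differed by more than the larger SD of the pair. A step could not pass this rule where the SD of the higher group exceeded its mean. That held for the first group of Il1b, Il6, Cxcl1 and Mmp9 and for the second group of Ccl2. The rule also set a difference of means against the spread of single libraries. It therefore does not decide whether these groups stand apart from the next in order.

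Cobalt was set against the sham metal to ask how the response to cobalt differed from that to surgery and a foreign body. At 3 months Il1b, Ccl2 and Il6 rose with Co. In edgeR's quasi-likelihood test without a filter on low counts, with Benjamini-Hochberg adjustment over 21763 genes, the log2 fold change was 3.62 ± 0.91 (SE) for Il6 with an adjusted p of 0.0220, 3.54 ± 0.90 for Il1b with an adjusted p of 0.0259 and 3.13 ± 0.91 for Ccl2 with an adjusted p of 0.0486. This made 3 of the 5 genes called, beside 6.96% of all genes tested. For Cxcl1 the log2 fold change was 1.38 ± 0.58 with an adjusted p of 0.160, and for Mmp9 1.30 ± 1.14 with an adjusted p of 0.482. So at 3 months Ccl2, Il1b and Il6 passed the test, and Cxcl1 and Mmp9 did not. The genes were not tested against each other, so no difference between them, or between cell types, is drawn from this split. In fits that left out 1 library the Mmp9 log2 fold change ran from 0.58 to 2.51, and 0 of 16 called it. With the same Co libraries, Cxcl1 and Mmp9 were both called against P. Against Ni only Mmp9 was called of these, and against DU neither was with all libraries. In bulk muscle, more cells of a type and more RNA per cell cannot be told apart.

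The filter on low counts removed Il6, Cxcl1 and Mmp9. Over the 12429 genes that passed it, Ccl2 had a log2 fold change of 3.2 ± 0.90 and an edgeR adjusted p of 0.0417, beside 6.44% of genes called in either direction and 6.17% higher. Il1b passed the filter only through the Co libraries of 3 months, so its value there, 3.61 ± 0.89 with an edgeR adjusted p of 0.0233, adds nothing to the fit without the filter.

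These calls were close to the threshold. Libraries with the same replicate number deviated together in this comparison. With that number as a block and no filter, edgeR gave 3.32 ± 0.86 for Il6 (adjusted p 0.0685), 3.46 ± 0.95 for Ccl2 (adjusted p 0.0945) and 3.05 ± 1.10 for Il1b (adjusted p 0.158). None of the 5 was then called, and 495 of 21763 genes were. With the filter the block gave 3.51 ± 0.92 for Ccl2 (edgeR adjusted p 0.103), and 1 of 12429 genes was called. Without the filter the Il1b call was lost without Co replicate 2, 6 or 8 or Ta replicate 2, 3, 7 or 8 (edgeR adjusted p 0.0513 to 0.0617). With the filter the Ccl2 call was lost without Co replicate 2, 3, 6 or 8 or Ta replicate 1, 2, 3, 5, 6, 7 or 8, with edgeR adjusted p of 0.0627 to 0.102. Without Ta replicate 4 the Ccl2 log2 fold change was 4.22 (edgeR adjusted p 0.0163). The Il6 call without the filter was lost without Co replicate 8 (edgeR adjusted p 0.0631).

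**Figure D2:**
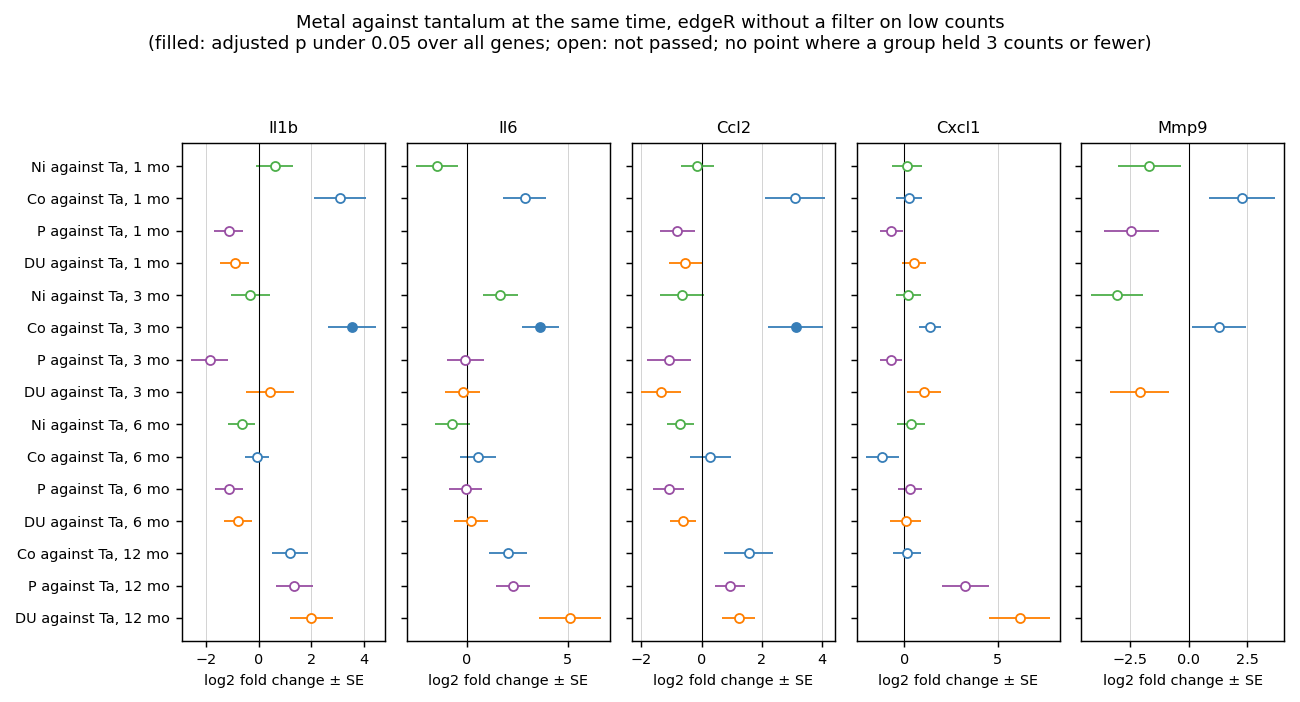
Log2 fold change with its SE (horizontal axis) of each of the 5 genes (panels) in each metal against Ta of the same time (rows), from edgeR without a filter on low counts. Filled points had an adjusted p under 0.05 over all genes, which holds for Il1b, Il6 and Ccl2 with Co at 3 months only. No point is drawn where a group held 3 counts or fewer.

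At 1 month no fold change with Co passed in this test. Ccl2 had a log2 fold change of 3.19 ± 0.94 and an adjusted p of 0.150 in edgeR. Without the filter Il1b had 3.09 ± 0.98 (adjusted p 0.161), Il6 2.86 ± 1.07 (adjusted p 0.199), Mmp9 2.29 ± 1.41 (adjusted p 0.391) and Cxcl1 0.25 ± 0.70 (adjusted p 0.877) in edgeR. No gene of the 5 was called, beside 0% of all 12512 genes, of which 1820 had an unadjusted p under 0.05. DESeq2 called 2 of the 5, Il1b (adjusted p 0.00758) and Ccl2 (adjusted p 0.00861), beside 6.41% of all genes. A single edgeR model of all 150 libraries called Il1b, Ccl2 and Il6, beside 11.5% of all genes.

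Co at 6 and 12 months gave no call of the 5 genes in edgeR, or in DESeq2, which called 0.358% and 0.983% of all genes. At 6 months Ccl2 had a log2 fold change of 0.32 ± 0.71 (edgeR adjusted p 0.999), with 0% of genes called, and of -0.62 (edgeR adjusted p 0.637) without Co replicate 1. At 12 months it had 1.59 ± 0.78 (edgeR adjusted p 0.379), with 0.0083% of genes called and 0.00927% without the filter. That mean was set by replicate 8, at 9.67 CPM of Ccl2 beside 0.136 to 0.977 CPM in the other 7 Co libraries and 0 to 1.62 CPM in Ta libraries.

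Whether the Co effect changed with time was tested as an interaction of metal and time. For Ccl2 the Co to Ta difference was larger at 3 than at 6 months by 2.91 ± 1.18 on the log2 scale, with an edgeR adjusted p of 0.168, beside 3.41% of genes called. For Il1b, without the filter, it was larger by 3.63 ± 1.05, with an edgeR adjusted p of 0.0607, beside 2.02% of genes called. None of the 5 genes passed. Without Co replicate 1 of 6 months both passed with the filter, Il1b at 3.81 and Ccl2 at 3.83 (edgeR adjusted p 0.0376 and 0.0440), beside 6.74% of genes called, but not without it, at 3.78 and 3.8 (edgeR adjusted p 0.0559 and 0.0769). Il1b passed the filter only through the Co libraries of 3 months, so its filtered value adds nothing to the fit without the filter. Il1b and Ccl2 each passed in the model of all 150 libraries (adjusted p 0.0170 for Il1b and 0.0301 for Ccl2), beside 10.3% of all genes. DESeq2 called Il1b alone (adjusted p 0.00926), beside 7.15% of all genes. Between 3 and 12 months the difference was 2.42 ± 1.22 for Il1b (edgeR adjusted p 0.326) and 1.65 ± 1.21 for Ccl2 (edgeR adjusted p 0.505), beside 1.21% of genes called. Between 3 and 1 months it was 0.41 ± 1.34 for Il1b and -0.01 ± 0.95 for Ccl2 (edgeR adjusted p 0.999 and 1.00), beside 0% of genes called.

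Within cobalt, Ccl2 fell after 3 months. With fold changes taken as 3 over the later time, Ccl2 was higher at 3 than at 6 months by 3.41 ± 0.93 on the log2 scale (edgeR adjusted p 0.0180), beside 28.4% of all genes called, and higher at 3 than at 12 months by 3.58 ± 0.94 (edgeR adjusted p 0.0104), beside 35.8%. Without the filter all 5 genes were higher at 3 than at 6 months, beside 18% of all genes called. The log2 fold changes were 4.2 ± 0.84 for Il1b, 3.58 ± 0.75 for Cxcl1, 3.35 ± 0.91 for Ccl2 and 2.82 ± 0.96 for Il6 (edgeR adjusted p 0.00671, 0.00684, 0.0211 and 0.0480). Mmp9 had 1 count at 6 months, against 251 at 3 months (edgeR adjusted p 0.00805), a ratio per total count of 3 over 6 months of 229 with a 95% counting interval of 40.8 to 9098. Without Co replicate 1 of 6 months the Il6 call was lost (edgeR adjusted p 0.0671), and the Ccl2 value was 4.23 (edgeR adjusted p 0.0171). Against 12 months 4 of the 5 were called without the filter, all but Il6, beside 21.3% of all genes. Between 3 and 1 months none was called, beside 0% of all genes. Ccl2 differed by 0.48 ± 0.90 (edgeR adjusted p 0.861) and Il1b by 1.2 ± 0.99 (edgeR adjusted p 0.736). Many other genes changed between these times too, as the shares of all genes show.

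Cobalt was also set against each other metal at 3 months, with the same 8 Co libraries in each comparison and in those with Ta. Without the filter, Il1b was higher than with Ni by 3.92 ± 0.93, Ccl2 by 3.84 ± 0.82 and Mmp9 by 4.43 ± 1.16 (edgeR adjusted p 0.0156, 0.0102 and 0.0221), beside 10.1% of all genes called. With the filter Ccl2 was higher by 3.89 ± 0.80 (edgeR adjusted p 0.00848), beside 12.2%. The Mmp9 call was lost without Co replicate 8 (edgeR adjusted p 0.0568). Against P, Ccl2 was higher by 4.33 ± 0.79 (edgeR adjusted p 0.00216), beside 29.1% of all genes called. Without the filter all 5 genes were higher than with P, beside 21.4%. The log2 fold changes were 5.45 ± 0.93 for Il1b, 3.76 ± 0.99 for Il6 and 2.12 ± 0.56 for Cxcl1 (edgeR adjusted p 0.00270, 0.0123 and 0.0123). Mmp9 had 251 counts with Co and 1 count with P (edgeR adjusted p 0.00294), a ratio per total count of 289 with a 95% counting interval of 51.5 to 11470.

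Without the filter, Ccl2 was higher than with DU by 4.48 ± 0.74, Il6 by 3.81 ± 0.95 and Il1b by 3.11 ± 1.02 (edgeR adjusted p 0.00518, 0.0156 and 0.0492), beside 15.2% of all genes called. With the filter Ccl2 was higher by 4.64 ± 0.77 (edgeR adjusted p 0.00531), beside 17.5%. DU replicate 2, the library with the unusual profile, held 53 of the 86 Il1b counts of its group. Without it, and without the filter, the Il1b log2 fold change was 4.57 (edgeR adjusted p 0.00649), and Cxcl1 and Mmp9 were called too, at 2.00 and 5.46 (edgeR adjusted p 0.0346 and 0.0102), beside 25.6% of all genes. The Il1b call was lost without Co replicate 2, 3, 6 or 8 or DU replicate 1, 3, 4, 5, 6, 7 or 8 (edgeR adjusted p 0.0653 to 0.0995). The calls of Il1b and Ccl2 against Ni and of Ccl2 and Il6 against DU held in all 16 fits that left out 1 library without the filter, and that of Ccl2 against P in all 16 with it.

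In cobalt muscle Il1b and Ccl2 moved with broader measures of the libraries at 3 months. At 3 months the Co libraries from replicate 1 to 8 had 11720, 12798, 12482, 11741, 11611, 12609, 11799 and 12607 genes at 1 CPM or more, and Ta libraries had 11132 to 11743. The top 10 genes took 25.8%, 15.5%, 22.5%, 27.4%, 29.7%, 17.6%, 31.2% and 18.0% of the counts of the same Co libraries, and 22.3% to 38.6% in Ta libraries. Replicates 2, 3, 6 and 8, which were high in Il1b and Ccl2, thus had the most genes detected and the lowest top 10 shares of the 8. Cxcl1 followed them only in part. It was highest in replicates 8 and 6, at 2.69 and 0.984 CPM. In replicates 2 and 3 it was 0.434 and 0.405 CPM, below 0.635 and 0.622 CPM in replicates 1 and 5. The TMM factors of replicates 2, 3, 6 and 8 were 1.89, 1.34, 1.69 and 1.72. Those of the other Co libraries were 0.986 to 1.15, and those of Ta libraries 0.798 to 1.28. At 1 month Co replicates 1 to 5, the highest of their group in Il1b and Ccl2, had 11923 to 12795 genes at 1 CPM or more, against 11354 to 11492 in the other 3 Co libraries and 11445 to 11805 in Ta libraries. Their top 10 shares of 17.1% to 30.0% overlapped with 27.6% to 29.7% in the other 3 and 24.8% to 31.2% in Ta libraries. The part of these measures in the result was not tested. No lane or preparation batch is given in the labels.

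**Figure D3:**
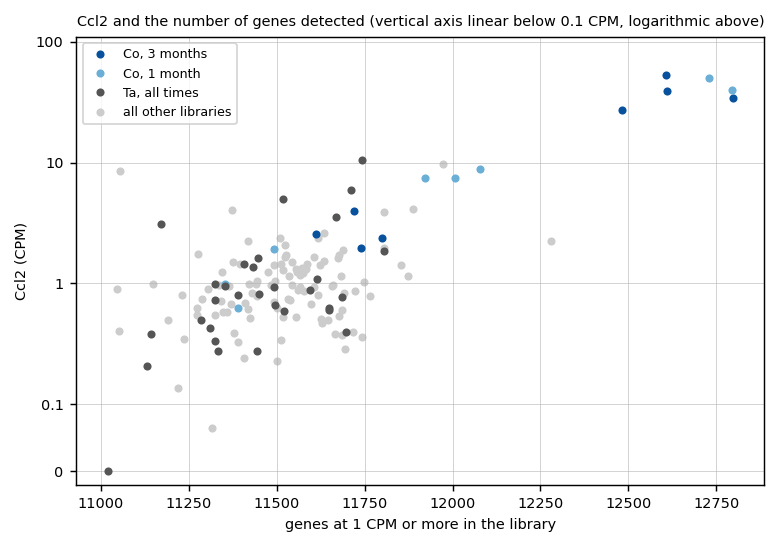
Ccl2 in CPM (vertical axis, linear below 0.1 and logarithmic above) against the number of genes at 1 CPM or more (horizontal axis) in each of the 150 libraries. Co libraries of 3 months with 12482 to 12798 genes hold 27.1 to 53.6 CPM of Ccl2, while Ta libraries hold up to 10.5 CPM.

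The 5 genes were compared by which libraries were highest in each. Co replicates 6 and 8 of 3 months were among the 10 highest libraries for all 5 genes. Co replicates 1 and 3 of 1 month, Co replicate 2 of 3 months and DU replicate 6 of 12 months were among the 10 highest for 4 genes. Co replicates 6, 7 and 8 of 1 month were the lowest of that group in Il1b, Ccl2 and Mmp9 alike. In DU replicate 6 the order was different. It ranked first for Il6 and Cxcl1, 8th for Il1b, 9th for Mmp9 and only 16th for Ccl2 among the 150 libraries. In Co libraries the highest Cxcl1 was 2.69 CPM, in replicate 8 of 3 months.

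**Figure D4:**
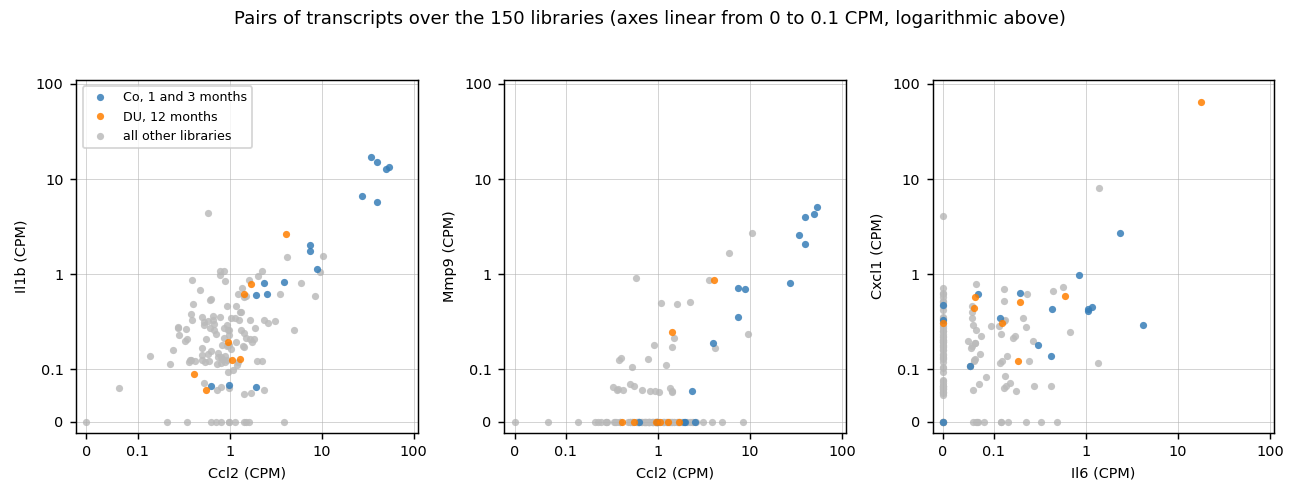
CPM of 2 genes in each of the 150 libraries, with axes linear to 0.1 CPM and logarithmic above: Il1b against Ccl2 (left), Mmp9 against Ccl2 (middle) and Cxcl1 against Il6 (right). In the left and middle panels Co libraries of 1 and 3 months run to the upper right, up to 53.6 CPM of Ccl2, and in the right panel the highest point is DU replicate 6 of 12 months with 17.7 CPM of Il6 and 64.1 CPM of Cxcl1.

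Nickel, P and DU were compared with Ta of the same time, and in these 11 comparisons DESeq2 called none of the 5 genes either. None of the 5 genes was called with Ni at 1, 3 or 6 months, beside 0% of all genes at each time in edgeR and 0.00928%, 0.024% and 0.00491% in DESeq2. With Ni, Ccl2 had log2 fold changes of -0.12 ± 0.57, -0.62 ± 0.71 and -0.73 ± 0.46 (edgeR adjusted p 0.931, 0.998 and 0.912). The Ta means of Ccl2 at 1 and 3 months rested on replicates 5 and 4, as given above. Medians of Ccl2 at 1, 3 and 6 months were 1.00, 1.09 and 1.11 CPM with Ni, against 0.879, 0.863 and 1.04 CPM with Ta. Without the filter, Mmp9 at 3 months had an unadjusted edgeR p of 0.0132 and an adjusted p of 0.789, lower with Ni. Il6 at 3 months averaged 0.176 CPM with Ni and 0.0496 CPM with Ta, and 3 of 8 Ni libraries exceeded every Ta library, but the log2 fold change of 1.66 ± 0.87 had an edgeR adjusted p of 0.789.

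With P, none of the 5 was called at 1, 3, 6 or 12 months, beside 0%, 0.338%, 0% and 2.38% of all genes in edgeR (0.0582% at 3 and 1.03% at 12 months without the filter) and 0.244%, 7.43%, 0.118% and 4.46% in DESeq2. Ccl2 had log2 fold changes of -0.81 ± 0.57, -1.11 ± 0.70, -1.09 ± 0.53 and 0.97 ± 0.50 (edgeR adjusted p 0.736, 0.326, 0.612 and 0.325). The same Ta means entered the values of 1 and 3 months. Medians of Ccl2 at 1, 3 and 6 months were 0.680, 1.01 and 0.552 CPM with P, against 0.879, 0.863 and 1.04 CPM with Ta. Without the filter Il1b was lower with P at 3 months, with a log2 fold change of -1.85 ± 0.70. Its edgeR p was 0.0155 unadjusted and 0.178 adjusted, and 18.8% of all genes had an unadjusted p under 0.05 in that comparison. At that time no P library exceeded 0.345 CPM of Il1b, and none lay above the Ta median of 0.471 CPM. Mmp9 had 1 count in the 8 P libraries of 3 months and 70 in the 8 Ta libraries, 44 of them in Ta replicate 4 (edgeR adjusted p 0.0883 without the filter, and 0.0441 in the model of all 150 libraries, beside 0.501% of all genes called, but 0.107 there without Ta replicate 4). At 12 months P replicate 5 held 149 of the 166 Cxcl1 counts of its group and 26 of the 48 Il6 counts. Without the filter the log2 fold changes at 12 months were 3.27 ± 1.26 for Cxcl1 (edgeR adjusted p 0.258) and 2.28 ± 0.86 for Il6 (edgeR adjusted p 0.222).

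With DU, none was called at 1, 3, 6 or 12 months, beside 0%, 0%, 0% and 0.00826% of all genes in edgeR (0.00462% at 12 months without the filter) and 0.148%, 9.46%, 0.0643% and 1.23% in DESeq2. Ccl2 had log2 fold changes of -0.54 ± 0.55, -1.38 ± 0.67, -0.62 ± 0.45 and 1.24 ± 0.56 (edgeR adjusted p 0.822, 0.198, 0.517 and 0.316). The same Ta means entered the values of 1 and 3 months. Medians of Ccl2 at 1, 3 and 6 months were 0.946, 0.958 and 1.12 CPM with DU, against 0.879, 0.863 and 1.04 CPM with Ta. At 3 months DU replicate 2 held 50 of the 73 Cxcl1 counts and 53 of the 86 Il1b counts of its group. With it the log2 fold changes without the filter were 1.08 ± 0.91 for Cxcl1 and 0.42 ± 0.90 for Il1b (edgeR adjusted p 0.471 and 0.806). Without it they were -0.64 and -1.06 (edgeR adjusted p 0.565 and 0.376), so the sign of both rested on this library.

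At 12 months DU replicate 6 held 1555 counts of Cxcl1 and 429 of Il6, against 2 to 13 and 0 to 13 in the other 7 DU libraries. The 8 Ta libraries of that time held 0 to 4 counts of each gene. Cxcl1 was above the highest Ta library, at 0.261 CPM, in 7 of 8 DU libraries. Without the filter edgeR gave log2 fold changes of 6.17 ± 1.64 for Cxcl1 and 5.10 ± 1.51 for Il6 (adjusted p 0.252 and 0.267), and all 5 genes had an unadjusted p under 0.05, beside 13.1% of all genes. Without replicate 6 the log2 fold changes were 1.80 for Cxcl1 and 1.39 for Il6 (edgeR adjusted p 0.292 and 0.478), and 1 of the 5 genes had an unadjusted p under 0.05, beside 11.1% of all genes. In the model of all 150 libraries Cxcl1 and Il6 were called (adjusted p 2.12e-06 and 0.000196), beside 5.06% of all genes, and without replicate 6 neither was (adjusted p 0.534 and 0.800). DESeq2 put 6 and 2 in place of the 1555 and 429 counts as outliers and called none. In this library the TMM factor was 1.56 and the median correlation with its group 0.929, and it also held 4.08 CPM of Ccl2, 2.64 CPM of Il1b and 0.866 CPM of Mmp9. Each of these was the highest of its DU group and below the highest Co libraries of 1 and 3 months.

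The sham muscle itself was followed over time. None of the 5 genes was called in Ta at 3 months against 1 month, beside 0.00813% of all genes. Nor was any at 6 months, beside 9.84%, or at 12 months, beside 17.7%, each against 1 month. The filter kept Ccl2 alone of the 5 genes in these comparisons, and without it none was called either, beside 0.00481%, 4.16% and 8.34% of all genes. Mmp9 had 0 counts at 6 months and 26 at 1 month, 25 of them in replicate 5 (edgeR adjusted p 0.147 without the filter). The model of all 150 libraries called it (adjusted p 0.0352), beside 9.19% of all genes, but not without that replicate (adjusted p 0.628). For Ccl2 the log2 fold changes against 1 month were 0.52 ± 0.78, 0.01 ± 0.63 and -1.38 ± 0.64 at 3, 6 and 12 months (edgeR adjusted p 0.890, 0.994 and 0.146). Ta at 12 months had the lowest mean of Ccl2 among the 19 groups, at 0.617 CPM.

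Genes with the most similar profile over the 150 libraries were ranked by Spearman's rho of log2 CPM, among genes with at least 1 CPM in at least 8 libraries. The highest were ENSRNOG00000023463 for Il1b (rho 0.568), ENSRNOG00000017869 for Il6 (rho 0.450), ENSRNOG00000000239 for Ccl2 (rho 0.622), ENSRNOG00000018483 for Cxcl1 (rho 0.467) and ENSRNOG00000058590 for Mmp9 (rho 0.696). Libraries of a group share metal, time and possibly preparation, and at these low counts a rank correlation also carries depth, so these values are a description. None of the 5 genes was the closest to another of them. Over all 150 libraries the highest rho between members was 0.378, for Il1b and Ccl2, next to 0.376 for Il1b and Mmp9. In the 16 Co libraries of 1 and 3 months, rho was 0.811 to 0.971 for pairs without Cxcl1. For pairs with Cxcl1 it was 0.297 to 0.462 there. In the other 134 libraries, where counts were few, rho was 0.0709 to 0.22 over all pairs.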

How the data were processed

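RNA-seq counts of 150 libraries of rat gastrocnemius were used. The authors deposited raw counts for each gene, in whole numbers and not normalized. Per the submitters' processing notes, HISAT2 2.0.5, the build Rnor_6.0 and featureCounts 1.5.0-p3 were used. A stranded kit for total RNA was used, per the labels' protocols. Reads of overlapping genes may be shared, since the strand setting and the annotation release are not given in the sources used here.

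Each comparison was fitted over all genes of its own libraries with edgeR 4.0.16 (R 4.3.3, limma 3.58.1). Low genes were removed with filterByExpr (minimum count 10, total 15), followed by TMM factors, glmQLFit with robust=TRUE and glmQLFTest, Benjamini-Hochberg adjustment and a threshold of 0.05. Of 27 comparisons the filter kept Ccl2 in 27, Il1b in 7, each of which included Co at 3 months, and Mmp9 in 1. Il6 and Cxcl1 were kept in 0. For these, fits without the filter are given and named as such. The SE is the size of the log2 fold change over the square root of F. The median log2 fold change of all genes was -0.04 to 0.04. Alternatives were DESeq2 1.42.0 size factors and Wald test, no filter, the replicate number as a block, and 1 model of all 150 libraries. Fits that left out single libraries were added after seeing the data. The fits were tested on simulated data.

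Libraries with the same replicate number in Co and Ta at 3 months deviated together, with correlations of 0.101 to 0.388 in 8 pairs, so blocked values are printed there. This held in 1 of 18 comparisons checked. The pairing comes from the data, since the labels do not say what a number shares. In no pair of libraries within a group did counts agree within sampling noise (lowest chi-square per degree of freedom 11.5 over 518 pairs).

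The members and the lists of pathway genes and cell markers were chosen with earlier results of these data known. Those lists were not tested, since identifiers could not be paired with names. The named genes are the 5 members and, for each, the closest gene by rank correlation.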

Additional observations from a re-analysis of the deposited data

Results flagged for a closer look

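In 93 groups with counts of a gene, the highest or lowest library was set against the gap that Dixon's criterion allows. The criterion flags about 1 in 20 groups when values are normally distributed, which log2 CPM of such low counts are not. Where 1 library alone held counts, as Ni replicate 7 of 1 month for Il6, a flag was certain. The number of flags is therefore not set against chance, and 17 values of a gene in a library are given here. Another 4 rested on 3 counts or fewer and are left out.

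At 12 months DU replicate 6 stood apart with 64.1 CPM of Cxcl1 and 17.7 CPM of Il6, each with 0.586 CPM in the next library of its group. At the same time P replicate 5 stood apart with 8.03 CPM of Cxcl1 and 0.485 CPM of Mmp9, and Co replicate 8 with 9.67 CPM of Ccl2 and 0.233 CPM of Mmp9. Ta replicate 5 of that time held 0.242 CPM of Il6. At 1 month Ta replicate 5 held 1.67 CPM of Mmp9, where the next Ta library held 0.0584 CPM, and Ni replicate 7 held 0.506 CPM of Mmp9 and 0.225 CPM of Il6, where the other Ni libraries held none. At 3 months DU replicate 2, whose whole profile differed from its group, held 0.906 CPM of Mmp9, and P replicate 6 held 0.616 CPM of Cxcl1. At 6 months Co replicate 6 held 0.412 CPM of Il6 and Ta replicate 1 held 0.704 CPM of Cxcl1. Low libraries were P replicate 4 of 3 months with 0.0644 CPM of Ccl2, and P replicate 2 and DU replicate 1 of 1 month, each with 0 CPM of Il1b.

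Metals differed at 3 months by a direct test between them, with the filter on low counts, which Il1b passed only through the Co libraries. With Co the log2 level of Ccl2 was higher than with Ni by 3.89, with P by 4.33 and with DU by 4.64. Each had an edgeR adjusted p under the threshold. Il1b was also flagged, at 3.97 against Ni and 3.2 against DU. Its filtered values add nothing to the fits without the filter. With the filter its call against DU held in 5 of 16 fits that left out 1 library.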

How the results depend on the processing

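In 16 of 27 comparisons no alternative moved the number of the 5 genes called. Size factors moved none. With the replicate number as a block the number called was 0 for Co against Ta and Co against Ni at 3 months, with or without the filter, and 0 with and 3 without it for Co at 3 against 6 months. The block without the filter called 5 for Co against P, 4 for Co against DU and 4 for Co at 3 against 12 months. Apart from Co against Ta, the shares of all genes called with the block are not given here. The blocked counts are therefore not read as a result about the 5 genes. Without block and filter, Co against DU called 15.2% of all genes. Without the filter 5 were called for Co against P, 5 for Co at 3 against 6 months and 4 for Co at 3 against 12 months, beside 21.4%, 18% and 21.3% of all genes. DESeq2 called 2 for Co against Ta at 1 month, 5 for Co against P, 4 for Co against DU, 5 and 4 for Co at 3 against 6 and 12 months, and 1 for the change of the Co effect between 3 and 6 months, beside 6.41%, 33.3%, 25.3%, 32.2%, 34.4% and 7.15% of all genes. The model of all 150 libraries called 3, 5, 4, 5, 4 and 2 in the same comparisons, beside 11.5%, 40.1%, 44.4%, 47.6%, 41.4% and 10.3% of all genes, and 1 for P against Ta at 3 months, 2 for DU against Ta at 12 months and 1 (Mmp9) for Ta at 6 against 1 month, beside 0.501%, 5.06% and 9.19%. The causes of these shifts were not tested.

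Leaving out 1 library at a time, with the filter, 0 to 2 genes were called for Co against Ta at 3 months. Such fits called 1 to 2 for Co against DU, 2 for Co against Ni and 1 for Co against P. For Co against Ta at 1 month 0 were called. Of the set, the filter kept only Ccl2 and, in part of these fits, Il1b. Without Co replicate 1 of 6 months, with the filter, 2 were called for the change of the Co effect between 3 and 6 months. That fit called 2 for Co at 3 against 6 months, where many other genes were called too. It called 0 for Co against Ta at 6 months, where the filter kept Ccl2 alone. The shares of all genes called are not given beside these counts. Counts from fits that left out a library are therefore not read as a result about the set. Over all genes, Co against Ta at 3 months gave 801 calls, 1515 without the filter, 2383 with DESeq2, 3268 in the model of all libraries and 1 with the block. At 1 month these were 0, 0, 990, 1697 and 0. The blocked fit of the other comparisons pairs libraries that share only a number.

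With 1 to 6 counts of Il6, Cxcl1 and Mmp9 in many libraries, differences of a few counts were not detectable at this depth.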
